A study of Mus musculus with 8 samples.

Results

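The comparison described here sets mice that had BCAS surgery against mice that had not. Its members were chosen by group label alone and take in all 8 libraries of the study: 4 with BCAS surgery (2 of the group BCAS and 2 of the group BCAS+TBI) and 4 without it (2 of control and 2 of TBI). The labels give BCAS only as an abbreviation, which the study's title ties to cerebral hypoperfusion, and TBI stands for traumatic brain injury. All mice were male Swiss Webster, an outbred stock, and were 10 weeks old. Each library is labelled as a biological replicate and holds single nuclei from flash-frozen forebrain next to the lesion site. The time between either surgery and collection is not given in the sources used here. Since each arm holds mice with and without TBI, every library with BCAS surgery could be set beside one without it that matches in TBI and in sequencing depth. These 4 pairs were BCAS 1 with control 1, BCAS 2 with control 2, BCAS+TBI 2 with TBI 1, and BCAS+TBI 1 with TBI 2. They join different animals.

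When blood flow to the brain is too low, cells short of oxygen stabilise the hypoxia-inducible factors (HIF), which switch on genes for glucose uptake, glycolysis and new vessels. Endothelial cells line the vessels and form the blood-brain barrier, pericytes and smooth muscle cells wrap them, and fibroblasts lie in the meninges and around larger vessels. Long-lasting low flow is known for harm to myelinated white matter and for responses of microglia and astrocytes. The gene lists below follow these roles.

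Counts of unique molecular identifiers (UMIs) were summed per library over nuclei. A barcode was kept from 500 UMIs and 300 genes upward when mitochondrial genes gave 5% of its UMIs or less. Of 53390 barcodes 48468 were kept, 23837 with BCAS surgery and 24631 without, although the labels give a capture target of about 3000 droplets per sample. The sums were taken over all kept nuclei (called whole tissue here), over 35894 nuclei with at least 3 UMIs of Snap25, Rbfox3 and Syt1 together (called neurons), and over the other 12574. In such sums, fewer cells of a type and less RNA per cell cannot be told apart. The rule for neurons separated the RNA only in part. Snap25, a protein of synaptic vesicle fusion, averaged 917 ± 48.5 CPM (library-scaled counts after TMM normalisation; SD, n = 4 with BCAS surgery) in neurons and 132 ± 11.8 CPM in the other nuclei. Rbfox3, the NeuN antigen, stood at 354 ± 78.2 and 23.7 ± 3.79 CPM, and Syt1, the calcium sensor of vesicle release, at 3020 ± 584 and 197 ± 75.3 CPM. These 3 genes define the rule, so higher values in neurons were fixed by it and do not measure how well it worked. Myelin genes summed to 5398 ± 214 CPM in the other nuclei and still to 990 ± 99.7 CPM in neurons of the same libraries, so glial RNA was present in both.

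The split by depth separated the libraries far more than surgery did. Kept UMIs per library ran from 27074872 to 30507301 in 4 libraries (control 1, BCAS 1, TBI 1 and BCAS+TBI 2) and from 42061479 to 54982090 in the other 4. This split took 80.8% of the variation between libraries in whole tissue, 81.6% in neurons and 58.5% in other nuclei, over genes with a mean of at least 4 on the log2 CPM scale. BCAS surgery took 2.51%, 3.11% and 6.35%, against 3.57%, 3.01% and 7.88% for the mean of the 3 components of the design that stand for no named factor. Depth set and TBI were terms in every main fit. The 4 libraries of lower depth also had more ribosomal protein gene RNA (0.423% to 0.622% of UMIs against 0.164% to 0.209%). Malat1 made up 6.20% to 7.78% of UMIs in their neurons against 2.79% to 3.26% in the other 4. Their mitochondrial shares were higher as well (0.807% to 1.38% against 0.400% to 0.593%). The depth set thus stands for depth and these traits together, which cannot be told apart here. Several measures touch the results below. TBI 2 held 83.4% neurons against 66.2% to 75.0% in the other 7 libraries, BCAS+TBI 2 had the highest mitochondrial share (1.38% against 0.400% to 1.04%), and the share of barcodes that failed the filters reached 20.3% in BCAS+TBI 2 against 3.40% to 13.9% elsewhere. The share of neurons was 74.0% ± 0.969 in the arm with surgery and 73.2% ± 7.39 in the other (SD, n = 4 each), a difference of 0.835 points that an exact two-sided permutation test did not separate (p = 0.857 over 70 assignments).

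No gene passed an adjusted p of 0.05 for BCAS surgery. With edgeR's quasi-likelihood test and Benjamini-Hochberg adjustment, 0% of 24312 genes in whole tissue, 23696 in neurons and 16229 in other nuclei were called in either direction. The smallest adjusted p was 0.305 in neurons and 1 in whole tissue and in other nuclei. At an unadjusted p under 0.05 there were 569 genes in whole tissue (2.34%), 878 in neurons (3.71%) and 599 in other nuclei (3.69%). DESeq2 called 3, 10 and 1 genes. The median standard error of a log2 difference was 0.127 in whole tissue, 0.122 in neurons and 0.176 in other nuclei, and the median size of a difference was 0.0711, 0.0769 and 0.115. Values of genes below are therefore descriptions, given as the fitted log2 difference ± its standard error. Each gene named for BCAS surgery had an adjusted p of 1 in this test unless another is printed, and a p under 0.05 in a count below is unadjusted. Agreement of all 4 pairs was common: 5.08% of genes were higher and 4.45% lower in every pair in whole tissue, 4.96% and 6.91% in neurons, and 5.37% and 5.42% in other nuclei.

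The response to low oxygen was first asked of HIF target genes in whole tissue. Of 26 tested members 18 were higher and 8 lower with BCAS surgery, none had a p under 0.05 in either direction (1.25% of all genes were higher and 1.09% lower at that level), and their median log2 difference was 0.03 against 0.00 for all genes tested. Within the pairs that median was 0.01, -0.05, 0.06 and 0.09. Vegfa, the main growth factor for vessels, stood at 43.4 CPM in control 1 and 44.9 in BCAS 1, at 35.95 in control 2 and 39.8 in BCAS 2, at 43.6 in TBI 1 and 35.7 in BCAS+TBI 2, and at 23.3 in TBI 2 and 35.9 in BCAS+TBI 1. The arms overlapped and the difference was 0.13 ± 0.13 (log2, SE). Slc2a1, the glucose transporter of the blood-brain barrier, differed by -0.12 ± 0.12 and Bnip3, which marks mitochondria for removal, by -0.04 ± 0.07. The direction for Vegfa turned without TBI 2 (-0.03), and that for Slc2a1 without TBI 1 (0.03). Stc2, a secreted glycoprotein, had the smallest p of the list (0.30 ± 0.21, unadjusted and above 0.05). Bhlhe40, a clock repressor, lay at -0.09 ± 0.07 and Hk2, a hexokinase, at 0.35 ± 0.31, which came to 0.01 without TBI 2.

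The promoter windows of 3 genes of the oxygen response are shown so that the HIF motifs can be seen beside these values: Slc2a1 and Bnip3, known HIF targets whose RNA did not separate, and Hif3a, the regulator with the highest difference. Each runs from 250 bases before to 49 bases after the start of the gene and reads 5′ to 3′ on the gene's strand, from RefSeq on build GRCm38.p6. Capitals mark ACGTG or GCGTG on either strand, the core of the HIF binding motif; adjoining or overlapping matches form one run. The windows are chr4:119108495-119108794 (plus strand) for Slc2a1, chr7:138909457-138909756 (minus strand) for Bnip3 and chr7:17062378-17062677 (minus strand) for Hif3a.
Slc2a1: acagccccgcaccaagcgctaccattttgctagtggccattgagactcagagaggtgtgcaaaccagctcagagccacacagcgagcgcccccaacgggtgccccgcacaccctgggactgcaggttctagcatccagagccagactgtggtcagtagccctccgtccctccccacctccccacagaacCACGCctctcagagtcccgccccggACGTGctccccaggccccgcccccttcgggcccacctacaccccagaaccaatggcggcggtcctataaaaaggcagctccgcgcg
Bnip3: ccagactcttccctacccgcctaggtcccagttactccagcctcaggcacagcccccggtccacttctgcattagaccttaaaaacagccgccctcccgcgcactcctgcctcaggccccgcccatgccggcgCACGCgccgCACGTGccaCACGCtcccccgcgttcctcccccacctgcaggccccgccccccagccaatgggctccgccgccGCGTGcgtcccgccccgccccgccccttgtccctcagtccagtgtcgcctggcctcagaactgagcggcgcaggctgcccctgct
Hif3a: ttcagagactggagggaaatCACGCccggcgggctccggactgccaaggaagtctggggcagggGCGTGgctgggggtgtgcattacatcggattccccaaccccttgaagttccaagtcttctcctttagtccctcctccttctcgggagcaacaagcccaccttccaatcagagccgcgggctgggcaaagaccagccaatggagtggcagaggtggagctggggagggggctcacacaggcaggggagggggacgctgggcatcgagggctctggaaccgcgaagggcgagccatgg
The Slc2a1 and Hif3a windows hold 2 matches each and the Bnip3 window 5. At least 1 match lay in 25 of 32 windows of HIF target genes (78.1%, 22 genes) and in 14380 of 32851 windows of all genes (43.8%). A match describes these letters only.

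Among the 12 regulators of the pathway, 6 were higher and 6 lower in whole tissue, with a median of 0.01. Hif3a, a family member that can oppose the others, was the one with a p under 0.05. It stood at 8.13 CPM in control 1 and 8.30 in BCAS 1, at 6.06 in control 2 and 6.29 in BCAS 2, at 7.23 in TBI 1 and 13.3 in BCAS+TBI 2, and at 4.46 in TBI 2 and 7.42 in BCAS+TBI 1. Both pairs with TBI thus differed more than both pairs without it, and BCAS+TBI 2 was the highest library (0.43 ± 0.17; 0.26 without BCAS+TBI 2). In neurons Hif3a was higher in 4 of 4 pairs (0.55 ± 0.15; 0.44 without BCAS+TBI 2). In whole tissue the Hif3a difference with BCAS surgery was larger with TBI than without it by 0.77 ± 0.22 on the log2 scale (adjusted p = 1.00 for the interaction, edgeR). Ndrg1, a hypoxia-induced gene that oligodendrocytes also express, was higher in 4 of 4 pairs in neurons (0.27 ± 0.08), and came to 0.12 without barcodes over 3 times the median UMIs of their library, an alternative meant to thin out nuclei sharing a droplet.

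Genes of energy supply lay close to 0 as well. Of 19 genes of glycolysis and lactate transport in whole tissue 13 were higher and 6 lower, 0 had a p under 0.05, and the median was 0.03. Pkm, the last enzyme of glycolysis, was 0.09 ± 0.05 higher and above its partner in 4 of 4 pairs, from 51.8 to 57.7 CPM in the first pair and from 55.7 to 57.8 in the last. Gapdh differed by 0.13 ± 0.08 and Pgam1 by 0.13 ± 0.08, which came to 0.04 and 0.07 without BCAS+TBI 2. Of 23 nuclear genes of the respiratory chain 15 were higher and 8 lower (median 0.01). All 13 mitochondrially encoded genes were higher in whole tissue (median 0.28), 2 of them with a p under 0.05, and their sum was 1723 ± 808 CPM with BCAS surgery and 1338 ± 409 without. BCAS+TBI 2, the library with the highest mitochondrial share, held 2691 CPM, and the median was 0.09 without it. mt-Nd4, a subunit of complex I, differed by 0.37 ± 0.15, mt-Nd1 by 0.32 ± 0.14 and mt-Cytb, of complex III, by 0.32 ± 0.16. Without BCAS+TBI 2 these 3 came to 0.18, 0.13 and 0.09. The list's medians within the pairs were 0.22, -0.01, 0.58 and 0.23. The mitochondrial share of all UMIs was 0.853% ± 0.434 with and 0.652% ± 0.196 without BCAS surgery (exact two-sided permutation test, p = 0.429).

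**Figure D1:**
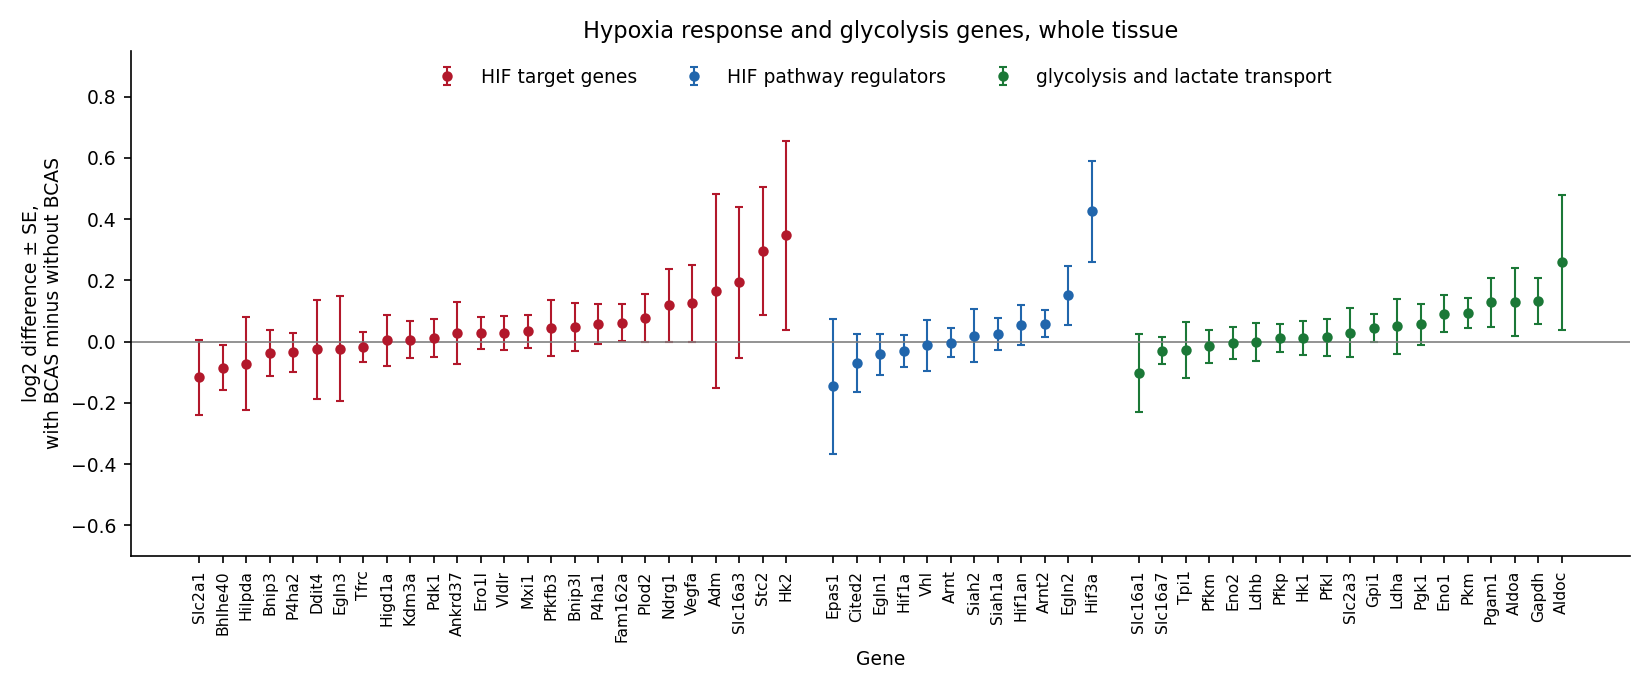
log2 differences in whole tissue (y axis, with BCAS surgery minus without, edgeR fit; bars are standard errors) for each tested HIF target, HIF regulator and glycolysis gene (x axis, ordered by difference within its list). Medians of the 3 lists are 0.03, 0.01 and 0.03, and Hif3a has the highest difference, 0.43.

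Stress programmes showed no common direction in whole tissue. The medians were -0.01 for 15 heat shock and chaperone genes, 0.03 for 21 genes of the integrated stress and unfolded protein responses, 0.01 for 19 oxidative stress and iron genes, 0.02 for 13 glucocorticoid response genes and 0.02 for 15 cell death genes. Of these 83 genes 1 had a p under 0.05, a level that 2.34% of all genes in whole tissue reached. This was Cryab, a small heat shock protein that oligodendrocytes and astrocytes hold at rest, which was higher in 4 of 4 pairs: 17.3 CPM in control 1 and 26.2 in BCAS 1, 6.41 in control 2 and 7.5 in BCAS 2, then 23.3 in TBI 1 and 28.3 in BCAS+TBI 2, 4.05 in TBI 2 and 6.43 in BCAS+TBI 1 (0.42 ± 0.15). Its level was higher in each low-depth library than in each high-depth one. Hspb1, another small heat shock protein, lay at -0.79 ± 0.42 and Hmox1, the inducible haem oxygenase, at -0.39 ± 0.25. Hspb1 ran from -1.25 without control 1 to -0.34 without control 2, and Hmox1 came to -0.22 without BCAS 1. Of the long noncoding RNAs that stay in the nucleus, Mirg (-0.20 ± 0.06) and Rian (-0.17 ± 0.07) were lower and Malat1 differed by -0.10 ± 0.07.

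In the nuclei outside the neuron rule, RNA of the vessel wall was lower with BCAS surgery among nuclei that passed the filters, and much less so among all deposited barcodes. All 19 genes of the endothelial and blood-brain barrier list were below 0 and 8 had a p under 0.05, against 2.43% of all genes tested at that level in this direction. Lower values in 4 of 4 pairs were found for 6 of the 19, against 5.42% of all genes. The list's median was -0.33 (all genes 0.01), with 0.02, -0.43, -0.39 and -0.37 within the pairs. The pair of BCAS 1 and control 1 thus did not share the difference. Leaving out 1 library at a time moved the median between -0.41 (without control 1) and -0.18 (without control 2). The summed level was 3703 ± 286 CPM with and 4414 ± 982 CPM without BCAS surgery (SD, n = 4 each). In whole tissue 17 of the 19 were lower, none with a p under 0.05, and the median was -0.25, moving between -0.47 without TBI 2 and -0.05 without TBI 1. With all deposited barcodes, including those over 5% mitochondrial UMIs, the median in other nuclei was -0.08 and that in whole tissue -0.12. Values over all deposited barcodes are also given for most vascular results that follow.

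With all deposited barcodes the differences named next were smaller: -0.12 for Cdh5, -0.07 for Slco1a4, -0.08 for Ptprb and -0.14 for Cldn5. Cdh5, the cadherin of endothelial junctions, had the smallest p in the list (-0.46 ± 0.13). It stood at 29.0 CPM in control 1 and 29.5 in BCAS 1, at 71.2 in control 2 and 45.7 in BCAS 2, at 41.0 in TBI 1 and 30.2 in BCAS+TBI 2, and at 70.3 in TBI 2 and 45.5 in BCAS+TBI 1. The first pair was level and the other 3 were lower with BCAS surgery. Slco1a4, an organic anion transporter of brain endothelium, was lower in 4 of 4 pairs: 267 against 222 CPM, 593 against 475, 326 against 232 and 557 against 476 in the same order (-0.33 ± 0.10). Ptprb, a phosphatase that restrains Tie2 signalling, was also lower in 4 of 4 pairs (-0.33 ± 0.10). Of genes that define the barrier, Cldn5 of the tight junction differed by -0.45 ± 0.22, but by -0.13 without control 2, and Pecam1 by -0.35 ± 0.18, which ran from -0.58 without control 1 to -0.18 without control 2. Slc2a1 in these nuclei differed by -0.19 ± 0.13, from -0.36 without control 1 to -0.12 without TBI 1. Over all deposited barcodes Pecam1 differed by -0.12 and Slc2a1 by -0.05.

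Receptors and ligands of vessel growth were read in the same nuclei. Of 18 tested genes of VEGF, angiopoietin and Notch signalling 15 were lower and 3 higher. Among the lower ones 2 had a p under 0.05, where 2.43% of all genes were lower at that level. Tek, the Tie2 receptor through which angiopoietins keep vessels quiet, stood at 56.5 CPM in control 1 and 37.1 in BCAS 1, at 115 in control 2 and 91.0 in BCAS 2, at 69.1 in TBI 1 and 29.4 in BCAS+TBI 2, and at 107 in TBI 2 and 77.9 in BCAS+TBI 1. Within either depth set both libraries with BCAS surgery were below both without it (-0.63 ± 0.14). Flt1, a VEGF receptor, was level in the first pair (442 and 444 CPM) and lower in the other 3 (-0.33 ± 0.13; -0.18 without TBI 1). Angpt2, the ligand that loosens vessels, differed by -0.32 ± 0.15. Over all deposited barcodes Tek differed by -0.31, Flt1 by -0.08 and Angpt2 by -0.30.

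Mural cell genes were lower in part. Of 13 tested genes of pericytes and smooth muscle 10 were lower, 3 with a p under 0.05 (2.43% of all genes), and the median was -0.26. With 1 library left out that median ran from -0.41 without control 1 to -0.03 without TBI 1. Anpep, a pericyte peptidase, was lower in 4 of 4 pairs at low levels, 5.65 against 2.95 CPM, 10.2 against 6.72, 9.27 against 7.46 and 17.9 against 7.40 (-0.77 ± 0.24). Notch3, the receptor of mural cells, differed by -0.41 ± 0.13. Acta2, the actin of smooth muscle, differed by -1.09 ± 0.39 in these nuclei and by -1.07 ± 0.32 in whole tissue, where Myh11, the myosin of smooth muscle, differed by -0.59 ± 0.20 (-0.38 without TBI 1). The Acta2 difference in other nuclei ran from -1.63 without BCAS+TBI 2 to -0.72 without control 2. The whole-tissue Acta2 values of the pairs were 2.15 against 1.96 CPM, 2.06 against 0.725, 3.74 against 2.11 and 1.59 against 0.354, so the high-depth pairs were further apart. Over all deposited barcodes the list's median in other nuclei was 0.00, with -0.43 for Anpep, -0.20 for Notch3 and -0.33 for Acta2. Of 18 basement membrane and matrix genes 15 were lower in other nuclei and 1 had a p under 0.05: Fn1, fibronectin, at -0.52 ± 0.16, which came to -0.35 without control 2 and to -0.26 with all deposited barcodes. Lama4 (-0.23 ± 0.12) and Nid1 (-0.25 ± 0.14) encode parts of the vascular basement membrane, and differed by -0.17 and -0.15 over all deposited barcodes. Nid1 came to -0.15 without BCAS 2 as well.

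Fibroblast genes were the lowest of the vascular lists. Of 11 tested members 10 were lower in other nuclei, and the median was -0.42. A p under 0.05 was found for 6 of them, where 2.43% of all genes were lower at that level. The pair medians were -0.42, -0.91, 0.34 and -0.78, so BCAS+TBI 2 and TBI 1 went the other way. Ranbp3l stood at 138 CPM in control 1 and 121 in BCAS 1, at 220 in control 2 and 106 in BCAS 2, at 136 in TBI 1 and 123 in BCAS+TBI 2, and at 194 in TBI 2 and 111 in BCAS+TBI 1. Its 4 values with BCAS surgery were all below its 4 values without it (-0.56 ± 0.15), as held for 0.561% of all genes tested. Slc22a6, an organic anion transporter, differed by -0.78 ± 0.23. Slc47a1, an organic cation exporter, differed by -1.37 ± 0.43 and ran from 6.44 CPM in BCAS 2 to 88.7 CPM in TBI 2. Without BCAS 2 its difference was -0.88, and with all deposited barcodes -0.80. The median of the list with all deposited barcodes was -0.40. Among kept nuclei it was -0.67 without BCAS+TBI 2 and -0.26 without BCAS 2.

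The 5 genes named for the smallest p-values lower in other nuclei were picked by this same difference, so separated arms add no support. Apart from Ccr6 and Tek, 3 of them had arms that did not overlap, as 0.561% of all genes did in this direction. They are Zic1, a zinc finger factor of meningeal and other lineages, Wnk4, a kinase that sets ion cotransport, and Aldh1a2, which makes retinoic acid in the meninges. Zic1 lay between 35.2 and 43.7 CPM with BCAS surgery and between 47.5 and 70.7 without it (-0.54 ± 0.11). Wnk4 lay between 2.47 and 4.21 CPM with and between 5.90 and 11.02 without (-1.38 ± 0.29). Aldh1a2 lay between 14.1 and 20.6 CPM with and between 22.6 and 36.7 without (-0.85 ± 0.18). Ccr6, a chemokine receptor, held 22, 20 and 22 UMIs in control 1, control 2 and TBI 1 of these nuclei and 0 to 2 in the other 5, TBI 2 included (-4.07 ± 0.66).

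**Figure D2:**
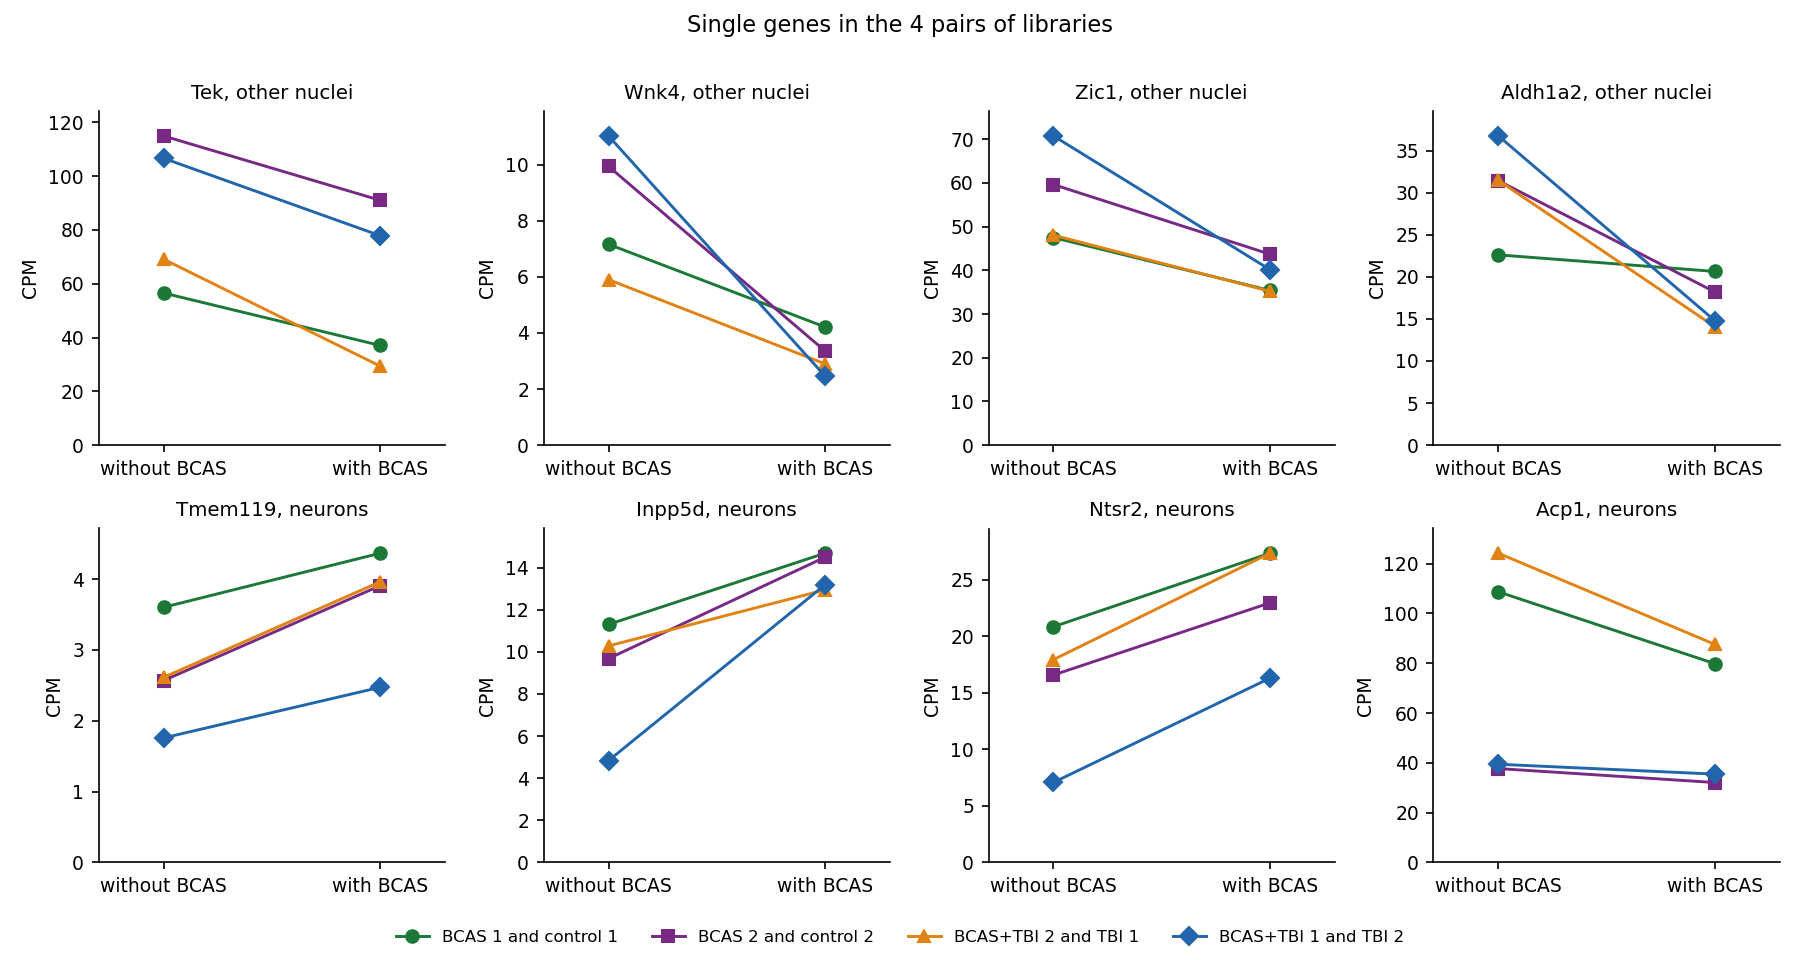
CPM (y axes, from 0) of 8 genes without and with BCAS surgery, with 1 line for each pair of libraries matched on depth and TBI. Tek, Wnk4, Zic1 and Aldh1a2 in other nuclei and Acp1 in neurons are lower in all 4 pairs, and Tmem119, Inpp5d and Ntsr2 in neurons are higher in all 4.

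The share of nuclei with vascular markers was counted after the gene values had been seen. A nucleus was marked for a class when it held at least 3 UMIs of that class's list and more of it than of any other. Endothelial-marked nuclei made up 3.24% of kept nuclei in control 1 and 1.80% in BCAS 1, 4.57% in control 2 and 2.92% in BCAS 2, then 3.31% in TBI 1 and 2.19% in BCAS+TBI 2, and 3.28% in TBI 2 and 2.72% in BCAS+TBI 1. All 4 libraries with BCAS surgery were below all 4 without it, 2.41% ± 0.511 against 3.60% ± 0.647 (SD, n = 4 each). The exact two-sided permutation test gave p = 0.0286, the smallest that 70 assignments allow, and p = 0.0556 within depth sets, again the smallest. Adjusted over the 9 classes counted, these became 0.257 and 0.5. Without control 2 the exact permutation p was 0.0571. Among the other nuclei alone, the endothelial share overlapped between arms, 7.10% to 11.03% with BCAS surgery and 9.82% to 19.8% without (exact permutation p = 0.171), and it was lower in 4 of 4 pairs. The filters removed endothelial-marked barcodes unevenly: 99 of 312 were kept in BCAS 1 and 120 of 439 in BCAS+TBI 2, against 185 of 319 in control 1 and 178 of 477 in TBI 1. Over all deposited barcodes, an alternative chosen after seeing the data, the share was 4.74% ± 1.24 with and 5.53% ± 1.55 without BCAS surgery (SD, n = 4 each), lower in 4 of 4 pairs with arms that overlapped (exact permutation p = 0.429). Fibroblast-marked nuclei were 0.770% ± 0.256 with and 1.21% ± 0.284 without BCAS surgery (SD, n = 4 each; exact permutation p = 0.0571). Pericyte and smooth muscle nuclei were level, at 0.831% ± 0.0996 and 0.856% ± 0.0826.

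**Figure D3:**
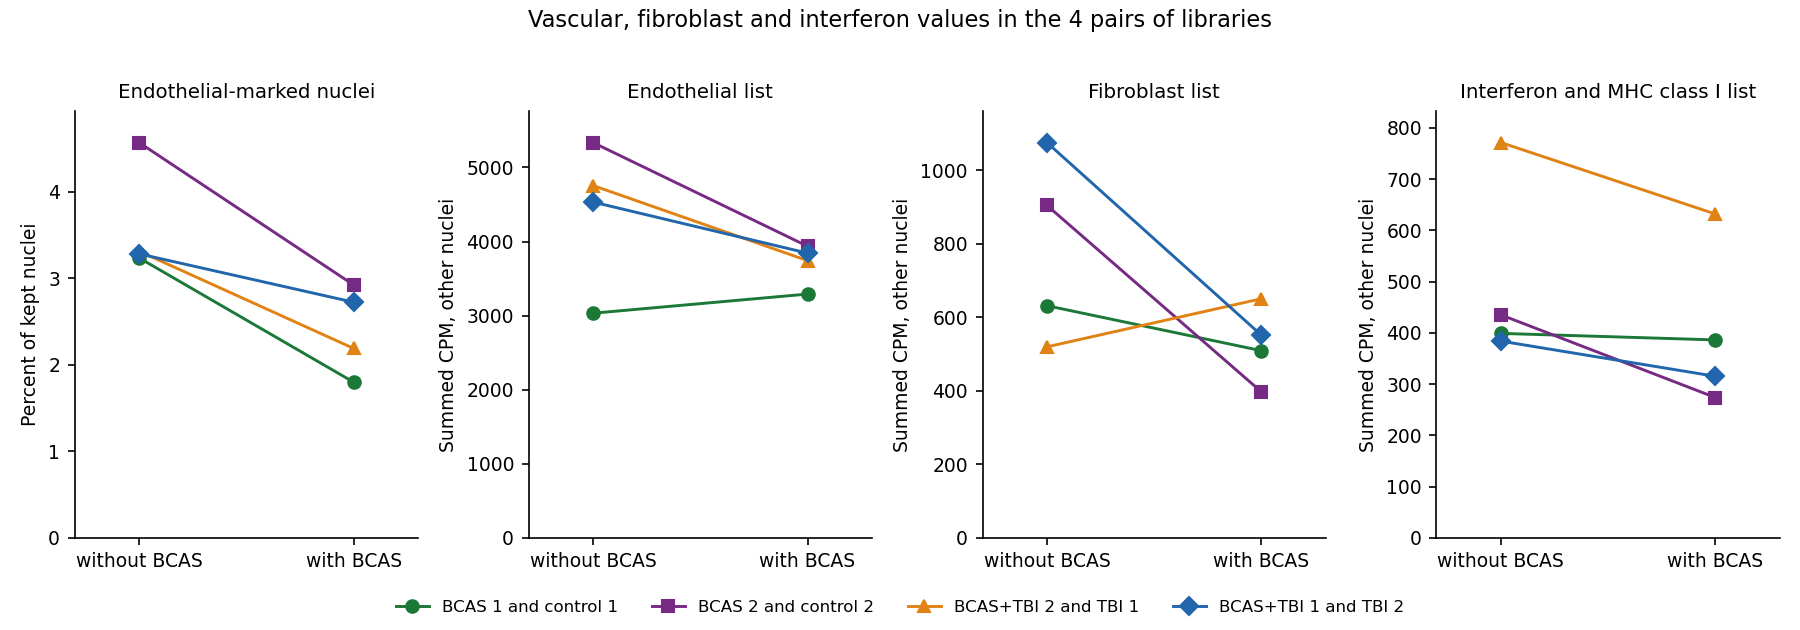
Percent of kept nuclei marked as endothelial, and summed CPM in other nuclei of the endothelial, fibroblast and interferon lists (y axes, from 0), without and with BCAS surgery; each line is 1 pair of libraries. The endothelial share is lower in all 4 pairs, while the endothelial sum is higher in BCAS 1 than in control 1 and the fibroblast sum higher in BCAS+TBI 2 than in TBI 1.

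Immune genes of the same nuclei went in several directions. Of 19 interferon response and MHC class I genes 18 were lower, 4 with a p under 0.05, where 2.43% of all genes were. The list's median was -0.33 and moved between -0.52 without control 1 and -0.10 without control 2. H2-D1, an MHC class I chain, was lower in 4 of 4 pairs: 109 CPM in control 1 and 60.2 in BCAS 1, 68.5 in control 2 and 37.5 in BCAS 2, then 189 in TBI 1 and 135 in BCAS+TBI 2, 52.8 in TBI 2 and 49.0 in BCAS+TBI 1 (-0.60 ± 0.19). Ifih1, a sensor of viral RNA, differed by -0.73 ± 0.20 and Parp14 by -0.52 ± 0.21, which came to -0.27 without control 2. With all deposited barcodes the median was -0.16. In whole tissue the median of the list was -0.26, between -0.42 without TBI 2 and -0.03 without control 2, and none had a p under 0.05. The endothelial list, which moved with this one, was summed above, and its part in the interferon values was not tested. Of 9 complement genes 5 were higher and 4 lower. Serping1, the C1 inhibitor, lay at -0.79 ± 0.28, which came to -0.45 without control 2 and to -0.30 with all deposited barcodes. Of reactive astrocyte genes 13 of 15 were below 0 (median -0.20), among them Aspg at -0.73 ± 0.36 and Osmr, a cytokine receptor, at -0.36 ± 0.18. The list's median ran from -0.46 without control 1 to -0.08 without BCAS+TBI 1, Aspg came to -0.26 without TBI 1 and Osmr to -0.15 without control 2. Lcn2, a secreted iron carrier, was the exception with a p under 0.05 (1.51 ± 0.66). Its 29.8 CPM in BCAS+TBI 2 stood above 0 to 4.21 CPM in the other 7 libraries, and the difference was -0.39 without that library.

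Microglial genes were higher in 13 of 14 cases in other nuclei, but with a median of 0.13 and 1 p under 0.05, a level at which 1.26% of all genes were higher. That was Selplg, the ligand of P-selectin, which was higher in 4 of 4 pairs (0.44 ± 0.12). Of 12 tested genes of disease-associated microglia 8 were higher and 4 lower (median 0.08), 1 of the higher ones with a p under 0.05. Among genes of disease-associated microglia, Cd68, a lysosomal protein of phagocytes, stood at 8.29 CPM in control 1 and 10.5 in BCAS 1, at 3.76 in control 2 and 4.76 in BCAS 2, at 10.1 in TBI 1 and 23.2 in BCAS+TBI 2, and at 2.30 in TBI 2 and 8.10 in BCAS+TBI 1. The pairs with TBI were further apart than those without it (0.87 ± 0.27). Trem2, the lipid receptor of microglia, differed by 0.34 ± 0.18. Without TBI 2 the Trem2 difference came to 0.23, and without BCAS+TBI 2 that of Cd68 came to 0.66. Among settings other than leaving out a library, the lowest values were 0.04 for Trem2 and 0.31 for Cd68. Microglia-marked nuclei were 1.36% ± 0.240 of kept nuclei with and 1.32% ± 0.418 without BCAS surgery.

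RNA of astrocyte identity, microglial and myelin genes was higher with BCAS surgery inside the nuclei that met the neuron rule. All 16 astrocyte identity genes were above 0 there, 11 with a p under 0.05, where 2.12% of all genes were at that level, and 13 in 4 of 4 pairs, where 4.96% of all genes were. All 14 homeostatic microglia genes were above 0, 9 with a p under 0.05, and all 13 myelin genes were above 0, 4 with a p under 0.05. The medians were 0.41, 0.47 and 0.45, against -0.02 for all genes in neurons. TBI 2, the library with most neurons, had the lowest sum of each list: 738 CPM of astrocyte genes against 932 to 1313 in the other 7 libraries, 74.4 of microglial genes against 109 to 213, and 304 of myelin genes against 806 to 1113. Without TBI 2 the medians were 0.21, 0.31 and 0.14, and without barcodes over 3 times the median UMIs of their library they were 0.27, 0.30 and 0.29. In the 3 pairs that do not hold TBI 2 the astrocyte medians were 0.17, 0.31 and 0.29, the microglial 0.19, 0.44 and 0.19, and the myelin 0.06, 0.36 and 0.03. Reactive astrocyte genes did not share this direction in neurons: 11 of 16 were below 0, with a median of -0.09.

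Inpp5d, a lipid phosphatase of microglia, stood in neurons at 11.3 CPM in control 1 and 14.7 in BCAS 1, at 9.68 in control 2 and 14.5 in BCAS 2, at 10.3 in TBI 1 and 12.9 in BCAS+TBI 2, and at 4.84 in TBI 2 and 13.2 in BCAS+TBI 1. All 4 values with BCAS surgery were above all 4 without it (0.67 ± 0.17). Arms that did not overlap in this direction were found for 0.401% of genes in neurons. Tmem119, a microglial membrane protein, differed by 0.50 ± 0.13 and C1qb, a chain of complement C1q, by 0.60 ± 0.15.

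Ntsr2, a neurotensin receptor of astrocytes, stood in neurons at 20.9 CPM in control 1 and 27.4 in BCAS 1, at 16.6 in control 2 and 23.0 in BCAS 2, at 17.9 in TBI 1 and 27.4 in BCAS+TBI 2, and at 7.08 in TBI 2 and 16.3 in BCAS+TBI 1 (0.64 ± 0.17; adjusted p = 0.0496 with DESeq2). The low TBI 2 value made the last pair the widest. In other nuclei Ntsr2 differed by 0.32 ± 0.13 (0.17 without control 1). Agt, angiotensinogen, differed by 0.61 ± 0.16 in neurons and Slc6a11, the astrocytic GABA transporter, by 0.35 ± 0.10. Of the myelin genes Opalin differed by 0.67 ± 0.26, but by 0.35 without TBI 2, Cnp by 0.26 ± 0.09 and Mal by 0.42 ± 0.18, the last by 0.19 without TBI 2. Of genes of oligodendrocyte precursors Olig1 differed by 0.46 ± 0.12 and Ptprz1 by 0.17 ± 0.05, both higher in 4 of 4 pairs. In other nuclei, where these glia were counted, the 3 medians were 0.09, 0.13 and 0.20, and Ermn, a myelin cytoskeleton protein, differed by 0.35 ± 0.17. Without TBI 2 these 4 values came to -0.02, 0.04, 0.01 and 0.16. Without barcodes over 3 times the median UMIs, the differences in neurons were 0.40 for Inpp5d, 0.31 for Tmem119, 0.38 for Ntsr2, 0.36 for Agt, 0.19 for Slc6a11, 0.10 for Cnp and 0.03 for Ptprz1, all smaller by more than 1.5 times. The part of RNA from outside the nuclei in these values was not tested.

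**Figure D4:**
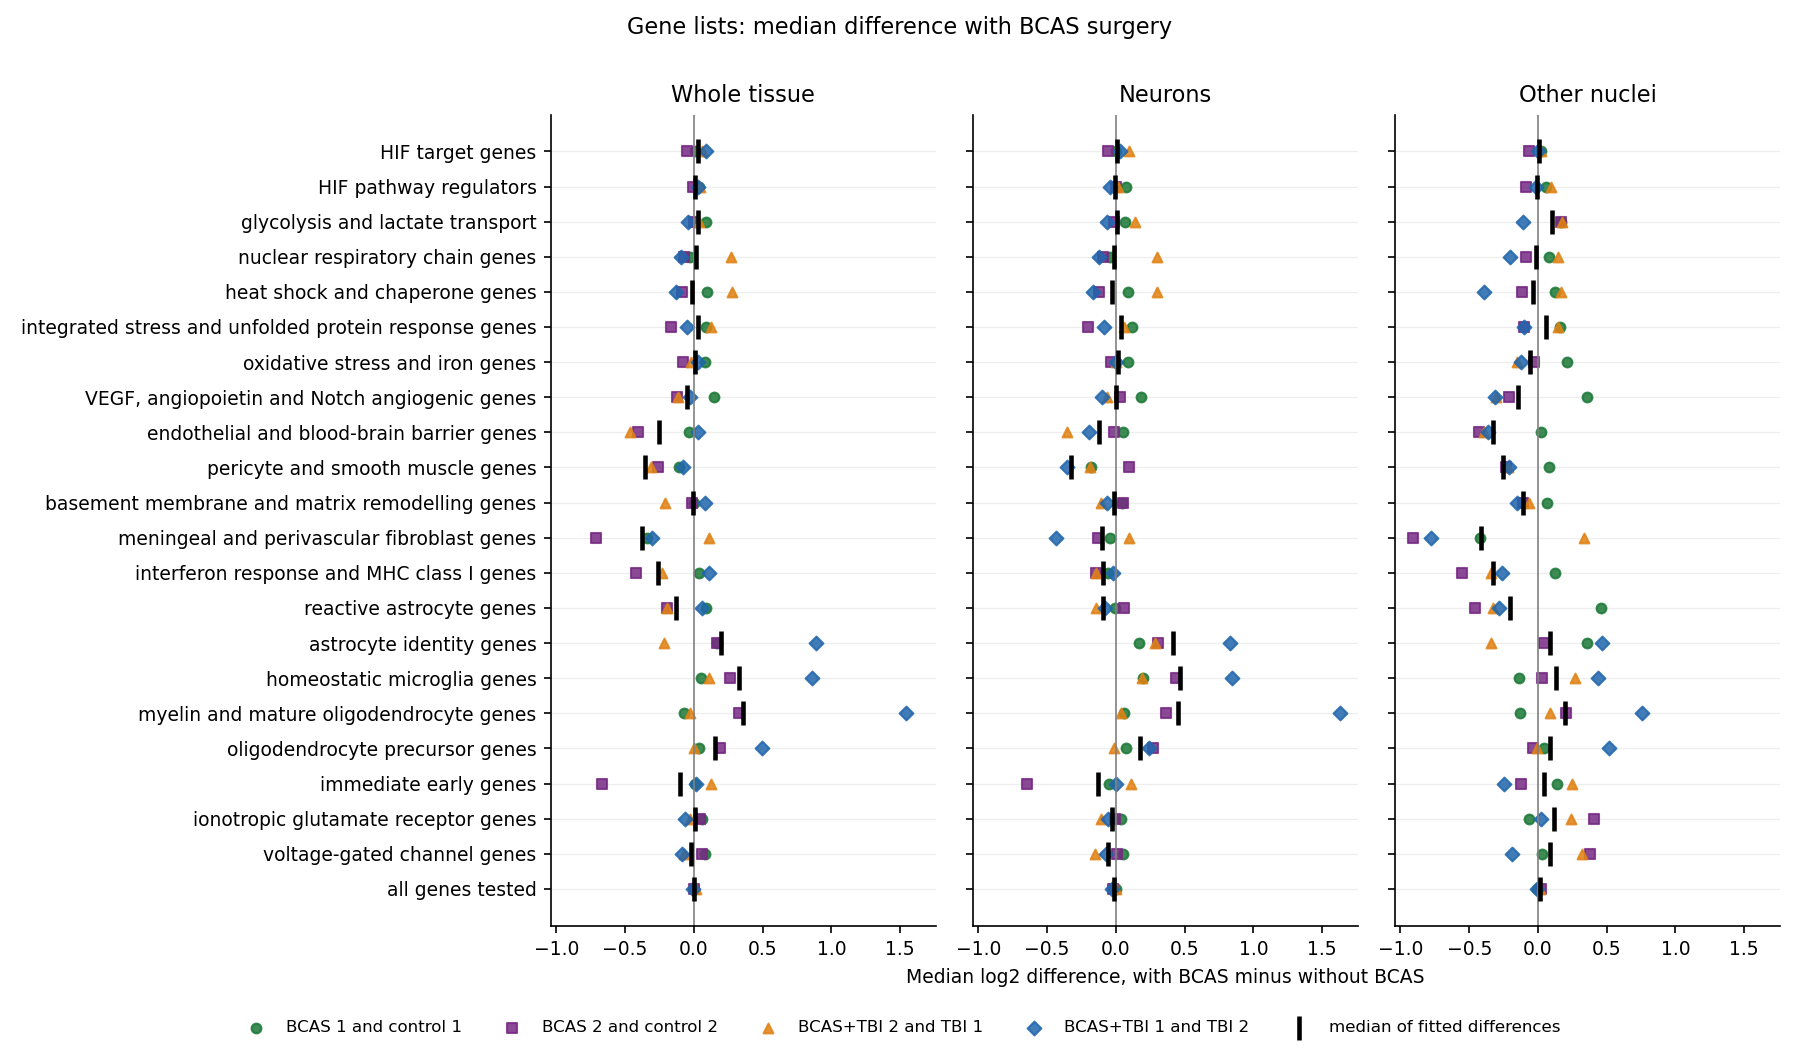
Median log2 difference (x axes, with BCAS surgery minus without) of 21 gene lists and of all genes tested in whole tissue, neurons and other nuclei; black bars are medians of the fitted differences and coloured points are medians within each of the 4 pairs. Hypoxia and stress lists lie near 0, and vascular and fibroblast lists lie below 0 in other nuclei. Astrocyte identity, homeostatic microglia and myelin lists lie above 0 in neurons, with BCAS+TBI 1 and TBI 2 the farthest pair. There the oligodendrocyte precursor list lies above 0 and the reactive astrocyte list below 0.

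Genes of neuronal function differed little. In neurons, 11 of 15 ionotropic glutamate receptor genes were below 0 with a median of -0.03, 13 of 18 GABA genes with -0.03, 11 of 16 vesicle release genes with -0.03, and 20 of 21 voltage-gated channel genes with -0.06, beside a median of -0.02 over all genes. Of these 70 genes 1 was lower with a p under 0.05, where 1.58% of all genes in neurons were. This was Pclo, a scaffold of the presynaptic active zone (-0.10 ± 0.05), at 455 CPM in control 1 and 423 in BCAS 1, at 602 and 590 in the second pair, at 439 and 393 in the third and at 647 and 594 in the last. Unc13a, which primes vesicles, differed by -0.11 ± 0.05, and Kcnc2, a fast potassium channel, by -0.13 ± 0.06. Genes that mark regions bear on where tissue was cut: 6 of 6 thalamic genes were lower in neurons (median -0.11) and 7 of 7 hippocampal genes higher (median 0.14). The pairs did not all share this. Thalamic pair medians were -0.28, 0.20, -0.23 and -0.19, so BCAS 2 and control 2 went the other way. Hippocampal pair medians were -0.105, 0.02, 0.29 and 0.26, so BCAS 1 and control 1 did. Ntng1, an axon guidance protein of thalamic neurons, stood at 590 CPM in control 1 and 511 in BCAS 1, 581 in control 2 and 552 in BCAS 2, then 660 in TBI 1 and 594 in BCAS+TBI 2, and 729 in TBI 2 and 621 in BCAS+TBI 1 (-0.17 ± 0.04). The cortical and striatal medians were -0.01 and -0.02, with pair values from -0.27 to 0.35 for striatal genes.

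Other genes of smallest p-value in neurons had no list in common. Acp1, a small tyrosine phosphatase, was lower in 4 of 4 pairs: 109 against 79.9 CPM, 37.7 against 32.1, 124 against 87.6 and 39.5 against 35.5 in the order of the pairs (-0.34 ± 0.07; adjusted p = 0.0496 with DESeq2). Its level followed depth set more than surgery. Bche, which cleaves choline esters, was higher in 4 of 4 pairs in neurons (0.59 ± 0.12) and in whole tissue (0.54 ± 0.11). Tmem144 (0.52 ± 0.10) and Sbsn, a secreted protein (0.79 ± 0.17), separated the arms upward, and Tmem68 did so downward (-0.33 ± 0.08), as 0.321% of genes in neurons did. Trp63, a transcription factor of the p53 family, lay at 0.91 ± 0.17 (0.39 without barcodes over 3 times the median UMIs), Pdlim7 at -0.20 ± 0.04 and Tomm20l at -0.61 ± 0.14. Igkc, an antibody chain, held 45 UMIs in control 1 and 15 in TBI 1 and 0 to 2 in the other 6 libraries (-3.38 ± 0.67).

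In whole tissue, the remaining genes named by the rule were few in UMIs or followed depth. Cst3, cystatin C, an abundant protease inhibitor of microglia and astrocytes, was higher in 4 of 4 pairs: 269 CPM in control 1 and 400 in BCAS 1, 77.0 in control 2 and 83.8 in BCAS 2, then 274 in TBI 1 and 315 in BCAS+TBI 2, 68.6 in TBI 2 and 83.8 in BCAS+TBI 1 (0.30 ± 0.07). Sbsn again separated the arms (0.83 ± 0.17), which 0.267% of genes did upward in whole tissue, and Acp1 (-0.29 ± 0.06) and Tomm20l (-0.57 ± 0.14) were lower in 4 of 4 pairs. Slc47a2, a cation exporter, lay between 0.253 and 0.555 CPM with and between 0.572 and 0.913 without BCAS surgery (-1.27 ± 0.31), a separation that 0.173% of genes showed downward, and Bcl3, a regulator of NF-kappaB, at -1.47 ± 0.33. Klri2 (1.75 ± 0.42) rested on 1 to 10 UMIs per library. Ccr6 in whole tissue held 49 UMIs in each of control 1, control 2 and TBI 1 and 1 to 8 in the other 5 libraries (-3.13 ± 0.74). Tpm3-rs7 (2.68 ± 0.61), a copy of a tropomyosin gene whose count is uncertain where relatives share its sequence, held 419 UMIs in BCAS 2 and 283 in BCAS+TBI 1 and 11 to 30 in the other 6, so 2 of 4 libraries of the arm carried it.

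In other nuclei the genes higher by the rule were also mixed. Nkain4, a partner of the sodium pump, was higher in 4 of 4 pairs, 62.6 against 93.5 CPM, 26.3 against 38.1, 75.0 against 93.6 and 24.3 against 34.5 without and with BCAS surgery (0.47 ± 0.11). Tmem163, a zinc transporter, was higher in 4 of 4 pairs (0.39 ± 0.11). Cga, the alpha chain of pituitary hormones, held 54 UMIs in BCAS 1 and 22 in BCAS+TBI 2 against 0 to 3 in the other 6 libraries (3.90 ± 0.94). Hist1h2al (2.81 ± 0.61), a histone gene with near-identical copies, held 27 UMIs in BCAS+TBI 2 and 0 to 12 elsewhere, and Tpm3-rs7 had its UMIs in the libraries named above (3.23 ± 0.70). Of HIF target genes in these nuclei 14 were higher and 9 lower (median 0.01). Pfkfb3, which drives glycolytic flux, was higher in 4 of 4 pairs (0.29 ± 0.13). Of glycolysis and lactate transport genes 16 were higher and 3 lower (median 0.10). Slc16a1, a lactate carrier of endothelium, was among the lower ones (-0.32 ± 0.14), a difference that was absent with all deposited barcodes (0.0063).

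The last question was whether the difference with BCAS surgery is another one in mice that also had TBI. The interaction term passed an adjusted p of 0.05 for 0% of genes in whole tissue and in neurons (690 genes, 2.84%, and 784 genes, 3.31%, at an unadjusted p under 0.05; DESeq2 called 4 and 2). In other nuclei 1 gene passed (0.00616% of genes; 536 genes, 3.3%, at the unadjusted level). This was S100a9, a chain of the neutrophil protein calprotectin (-8.12 ± 0.76 on the log2 scale, adjusted p = 0.0287). Its UMIs there were 226 in BCAS 1 and 1 in control 1, 13 in BCAS 2 and 0 in control 2, 27 in BCAS+TBI 2 and 49 in TBI 1, and 0 in BCAS+TBI 1 and 1 in TBI 2. With libraries at 0, the size of the fitted value has no reading as a fold, and leaving out any one of BCAS 1, control 1, TBI 1, BCAS 2 and BCAS+TBI 2 ended the call. With all deposited barcodes it was -2.38 (adjusted p = 0.856). S100a8, its partner, held 93, 1, 6, 0, 19, 21, 0 and 1 UMIs in the same order. Haemoglobin made up 0.0311% of UMIs in BCAS 1, then 0.0800% in TBI 1 and 0.0886% in BCAS+TBI 2, the 3 libraries with most S100a9 UMIs, and 0.00499% to 0.0226% in the other 5; the part of blood in the S100a9 values was not tested.

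S100a9 also led in whole tissue (-7.36 ± 0.65, adjusted p = 0.102 with edgeR). Of the other genes named for the interaction, Cdhr3 and Tmem212 are known from ciliated cells such as the ependyma, which lines the ventricles. Cdhr3 in neurons stood at 1.46 CPM in control 1 and 5.21 in BCAS 1 and at 0.999 in control 2 and 4.85 in BCAS 2, but at 2.86 in TBI 1 and 2.34 in BCAS+TBI 2 and at 3.26 in TBI 2 and 2.28 in BCAS+TBI 1. Both pairs without TBI were higher with BCAS surgery and both with TBI lower (-2.47 ± 0.31, adjusted p = 0.494 with edgeR and 0.00168 with DESeq2; -2.18 ± 0.25 in whole tissue, adjusted p = 0.303 and 0.000229). Tmem212 had -1.60 in whole tissue and -1.79 in neurons. In other nuclei the interaction was below 0 with a p under 0.05 for 4 of 8 ependymal genes (median -0.83), as for 268 of all 16229 genes tested. Ependymal-marked nuclei were few there, from 3 kept in BCAS+TBI 2 to 29 kept in control 2. All deposited barcodes held 85 and 124 of them in these 2 libraries. Arhgap6, which encodes a GTPase-activating protein, had -0.64 in neurons.

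Immediate early genes, which neurons switch on within minutes of activity, were also read for the interaction. In neurons 5 of 19 were above 0 with a p under 0.05 (Junb, Arc, Egr2, Dusp1 and Homer1; median of the list 0.45), as were 394 of all 23696 genes tested. Over mice with and without TBI, 17 of the 19 immediate early genes were lower with BCAS surgery, 0 with a p under 0.05, and the median was -0.13. Their sum in neurons was 477 CPM in control 1 and 453 in BCAS 1, 639 in control 2 and 484 in BCAS 2, then 488 in TBI 1 and 576 in BCAS+TBI 2, and 676 in TBI 2 and 656 in BCAS+TBI 1. The pair of BCAS 2 and control 2 had a median of -0.65, and the other 3 pairs lay between -0.05 and 0.11; without BCAS 2 the median of the list was 0.02. Arc, a regulator of synaptic strength, stood at 22.6 CPM in control 2 and 9.35 in BCAS 2, and at 15.02 and 12.7, 17.3 and 16.6, and 19.97 and 21.7 CPM in the other pairs (-0.35 ± 0.19). Npas4, a factor induced by calcium entry, differed by -0.38 ± 0.20 and Junb by -0.27 ± 0.16 in neurons. In whole tissue Fos differed by -0.32 ± 0.21, with 3.02 CPM in BCAS 2 against 6.91 to 9.31 in the other 7 libraries, Npas4 by -0.32 ± 0.20 and Arc by -0.30 ± 0.19. Without BCAS 2 the neuron values came to -0.11 for Arc, -0.16 for Npas4 and -0.07 for Junb, and the whole-tissue values to -0.09 for Fos, -0.12 for Npas4 and -0.07 for Arc. In neurons the interaction was also above 0 with a p under 0.05 for 3 of 13 mitochondrially encoded genes, and below 0 for 4 of 21 voltage-gated channel genes (Cacna1c, Cacna1i, Kcnc2 and Kcnma1; median of the list -0.15), as for 390 of all genes.

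**Figure D5:**
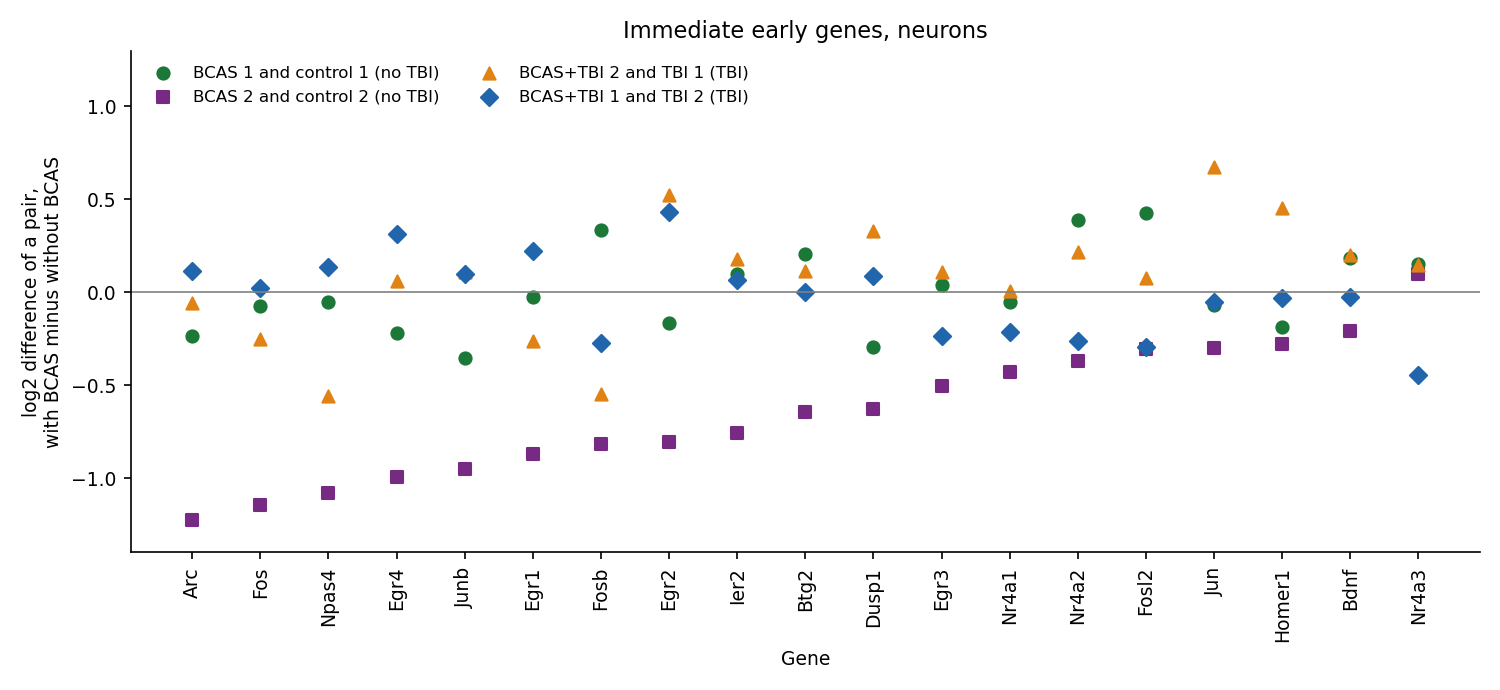
log2 difference within each pair of libraries (y axis, with BCAS surgery minus without, 0.5 CPM added to each value) for 19 immediate early genes in neurons (x axis, ordered by the pair BCAS 2 and control 2). The squares of that pair lie below 0 for 18 genes, down to -1.23 for Arc, while the other 3 pairs lie on both sides of 0.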

How the data were processed

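Single-nucleus 3′ RNA sequencing was measured in 8 libraries. The authors deposited 1 matrix of raw UMI counts per library (54232 features, the same in each), whose software, per the file headers, was Cell Ranger 7.0.0. The submitters' processing notes add Seurat and the builds GRCm38 and mm10. Annotation release and nucleus-calling settings are not given in the sources used here. Background RNA was not corrected and doublets were not removed. Counts were summed per library and tested with edgeR 4.0.16 in R 4.3.3 (quasi-likelihood test, two-sided, TMM scaling, low counts removed by filterByExpr at 10, Benjamini-Hochberg over all genes of a compartment, threshold 0.05), with terms for depth set (the 4 libraries with fewest against the 4 with most UMIs), TBI and BCAS surgery; a further fit added their interaction. DESeq2 1.42.0 was an alternative, and other settings are in the closing section. Pair differences used 0.5 CPM added to each value. The scripts were tested on simulated data.

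Genes were named by rule: up to 10 per direction past the threshold and consistent in 4 pairs, or else the 5 of smallest p per direction, without predicted, mitochondrial and ribosomal protein genes; the 3 of smallest p for the interaction where none passed; and members of 39 lists (581 genes, all found in the files). Some genes that the rule names are not reported here. The members of the comparison and the lists were chosen with earlier results of these data known. Lists are described by counts and medians only. Libraries shared 4 to 15 barcodes per pair of libraries, at most 0.274%, and no 2 replicates were alike. Labelled replicate numbers named samples and were not used to pair them. Intervals and standard errors cover the spread between these 8 libraries, and a library of other nuclei with no UMI of a gene allows up to 3 UMIs, or 0.799 to 1.38 CPM.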

Additional observations from a re-analysis of the deposited data

Results flagged for a closer look

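Values that stood apart from the other 3 libraries of their arm were sought in 266 groups of 4 libraries, and 16 were found by a test that chance passes in about 1 of 20 groups. In whole tissue these were Bcl3 in TBI 1 (1.75 CPM; the other 3 without BCAS surgery 0.350 to 0.544), Slc47a2 in BCAS 1 (0.555; 0.253 to 0.276), S100a9 in TBI 1 (2.02; 0 to 0.0695), Hmox1 in BCAS+TBI 2 (0.759; 0.411 to 0.457) and Fos in BCAS 2 (3.02; 7.61 to 8.35). In other nuclei, S100a9 stood at 95.2 CPM in BCAS 1 (others with BCAS surgery 0 to 11.2) and at 13.8 in TBI 1 (others without it 0 to 0.459), and S100a8 at 5.90 in TBI 1 (0 to 0.459). Lcn2 stood at 29.8 CPM in BCAS+TBI 2 (0 to 3.52) and Cldn5, of the tight junction, at 300.3 in the same library (169 to 183). Anpep in BCAS 1 (2.95; 6.72 to 7.46), Slc47a1 in BCAS 2 (6.44; 18.3 to 19.8), Aspg in BCAS 1 (16.01; 9.94 to 10.6) and Slc2a1 in control 1 (136; 181 to 187) completed that compartment. Ptprz1 in neurons was at 222 CPM in BCAS 2 (186 to 192), and the endothelial-marked share was 4.57% in control 2 (3.24% to 3.31%).

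The difference with BCAS surgery was flagged as another one with and without TBI for S100a9 in other nuclei. The flag rests on the interaction term of the edgeR fit (-8.12 on the log2 scale). This call was lost with all deposited barcodes and when any of several single libraries was left out.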

How the results depend on the processing

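The number of genes past the threshold for BCAS surgery, 0 in each compartment, became 3 in whole tissue, 10 in neurons and 1 in other nuclei with DESeq2, and 3 in neurons and 84 in other nuclei (20 higher, 64 lower) without a filter on low counts. Leaving out 1 library gave 0 to 5 in whole tissue (5 without TBI 2, 1 without control 1 or TBI 1), 0 to 6 in neurons (6 without TBI 2, 1 without control 1 or TBI 1) and 0 to 1 in other nuclei (1 without TBI 1 or TBI 2). The interaction count, 0 in whole tissue and neurons, became 4 and 2 with DESeq2 and 3 and 2 without the filter, and with 1 library left out ran from 0 to 46 (46 without TBI 1, 1 without BCAS+TBI 1 or TBI 2) and from 0 to 16 (16 without TBI 1, 1 without BCAS+TBI 1). In other nuclei its 1 call became 0 without a depth term, with log2 of total UMIs as a term, at a minimum count of 30, with all deposited barcodes, without barcodes over 3 times the median UMIs and with a neuron rule of 1 UMI, 30 without the filter, and 0 to 2 with 1 library left out. The cause was not tested.

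The labelled replicate number as a block in place of the depth set gave 0 calls in each compartment for BCAS surgery (83, 109 and 131 genes at an unadjusted p under 0.05) and 0 for the interaction. Deviations of same-numbered libraries in whole tissue correlated at 0.77 to 0.91 among BCAS, control and TBI and at -0.93 to -0.83 with BCAS+TBI. The depth set is the pairing with the BCAS+TBI numbers crossed, so these correlations restate the depth split. They cannot show whether same-numbered libraries belong together in another way.

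The difference in the share of neurons (0.835 points) was -0.135 with all deposited barcodes and ran from -1.48 to 4.24 with 1 library left out. The difference in the endothelial-marked share (-1.19 points) was -0.793 with all deposited barcodes and ran from -1.36 to -0.868 with 1 library left out, its exact p passing 0.05 without control 2; both alternatives were chosen after seeing the data. A term for the number in the deposited file names, in place of depth, turned the log2 difference of Cst3 (-0.17), Gapdh (-0.16), Pgam1 (-0.15), mt-Nd1 (-0.0306), mt-Cytb (-0.064) and Cryab (-0.14) in whole tissue, of Cnp (-0.0031), Mal (-0.0048), Pclo (0.0125) and Kcnc2 (0.0169) in neurons and of Lcn2 (-0.55) in other nuclei. Lcn2 also turned with the interaction term added (-0.0346) and Slc16a1 in other nuclei with all deposited barcodes (0.0063). With 1 library left out, Lcn2 ran from -0.39 to 1.89 (below 0 without TBI 1 or BCAS+TBI 2), Vegfa in whole tissue from -0.025 to 0.263 (below 0 without TBI 2) and Slc2a1 in whole tissue from -0.228 to 0.0292 (above 0 without TBI 1). Of 2835 alternative values for 118 gene results, 2764 kept direction and side of the threshold, 42 passed it, 12 lost it and 17 turned. Of 2844 list medians 2751 stayed within the spread of the 4 pairs, though many small medians moved by more than 1.5 times, those of vascular lists most with all deposited barcodes. Depth limits genes with few UMIs most: Ccr6, Igkc, Klri2, Cga and S100a9 rest on the UMIs printed above.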

Other observations

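The gene of smallest p in neurons was outside the rule for naming and was chosen after its values were seen. Gm48606 (ENSMUSG00000113586), a predicted gene, stood at 6.69 CPM in BCAS 1, 6.41 in BCAS 2, 5.40 in BCAS+TBI 2 and 4.08 in BCAS+TBI 1, against 3.26 in control 1, 1.86 in control 2, 2.65 in TBI 1 and 1.23 in TBI 2. The arms did not overlap, and the difference was 1.39 ± 0.17 (log2, SE; adjusted p = 0.305, edgeR), between 1.25 and 1.54 with any 1 library left out.

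2 further genes, also chosen after their values were seen, were present in 3 of 4 libraries without BCAS surgery and near absent elsewhere, TBI 2 included, like Ccr6 above. BC023719 (ENSMUSG00000092365) in neurons lay at 5.37 CPM in control 1, 2.66 in control 2 and 4.63 in TBI 1, and at 0 to 0.0704 in the other 5 libraries. Gm12166 (ENSMUSG00000069899) lay at 7.24, 5.37 and 7.14 CPM in the same 3 libraries and at 0.679 to 0.902 in the other 5.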
